A study of Mus musculus with 2 samples.

Results

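The genes described here encode 10 chemokines of the CXC family in mouse macrophage-like cells that had received double-stranded RNA: Cxcl9, Cxcl10, Cxcl11, Cxcl1, Cxcl2, Cxcl3, Cxcl5, Cxcl16, Cxcl12 and Cxcl14. They were selected on the differences between these 2 arrays that are given below, so those differences are a description. They were matched by gene symbol to probe sets that carry a single symbol in the platform's gene table, and all 10 were found, with 1 probe set each, among 22180 named genes. RNA came from RAW264.7 cells labelled HuR-deficient and from wildtype RAW264.7 cells, with 1 Affymetrix array for each genotype. RAW264.7 is an established macrophage line derived from a BALB/c mouse tumour. HuR, the product of Elavl1, is a protein that binds U-rich and AU-rich mRNA sequences. Both cultures had been exposed for 8 hours to poly(I:C) of high molecular weight, which mimics viral double-stranded RNA, carried into the cells by lipofectamine. The labels give its dose as 1 mg/ml. The labels do not say how the HuR deficiency was made or whether the deficient line is 1 clone. No unstimulated array was analysed here, so the values compare genotypes under stimulation only.

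CXC chemokines are small secreted proteins that direct leukocyte migration through G-protein-coupled receptors. Cxcl9, Cxcl10 and Cxcl11 are induced by interferons and bind Cxcr3, which is carried by activated T cells and NK cells. Cxcl1, Cxcl2, Cxcl3 and Cxcl5 have a glutamate-leucine-arginine motif ahead of their first cysteines, bind Cxcr2 and attract neutrophils, and their genes are classical NF-kappaB targets. Several of these mRNAs hold AU-rich elements in their 3′ untranslated regions, through which stabilising and destabilising proteins set their half-life.

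RefSeq promoter windows (GRCm38.p6, 250 bases before to 50 bases after the transcription start) were matched for 7 of the 10 genes and not for Cxcl11, Cxcl5 and Cxcl16. They show the motifs that lie ahead of the CXCR3 ligand genes and the neutrophil-attracting genes. The sequences below end before the transcription start and are shown because interferon-activated factors and NF-kappaB, which double-stranded RNA is known to switch on, act through elements of these kinds. Capitals mark matches, on either strand, to the NF-kappaB motif GGGNNNNNCC, to the interferon-stimulated response element motif GAAANNGAAA or to TATAAA. The Cxcl9 stretch is chr5:92328080-92328329 and the Cxcl10 stretch is chr5:92348890-92349139, both on the minus strand.
Cxcl9: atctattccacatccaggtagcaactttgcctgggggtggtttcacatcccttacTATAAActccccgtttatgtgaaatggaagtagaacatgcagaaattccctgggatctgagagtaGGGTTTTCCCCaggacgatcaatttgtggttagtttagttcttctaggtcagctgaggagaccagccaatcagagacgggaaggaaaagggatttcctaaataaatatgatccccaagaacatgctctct
Cxcl10: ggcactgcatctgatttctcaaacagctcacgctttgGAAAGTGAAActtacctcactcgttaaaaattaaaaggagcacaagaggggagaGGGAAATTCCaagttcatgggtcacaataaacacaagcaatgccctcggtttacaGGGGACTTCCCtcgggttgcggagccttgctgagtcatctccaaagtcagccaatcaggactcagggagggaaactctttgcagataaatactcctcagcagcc

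The Cxcl10 window held an interferon-stimulated response element motif beginning 213 bases before the start and NF-kappaB motifs beginning 159, 104 and 103 bases before it, of which the last 2 overlap. The Cxcl9 window held NF-kappaB matches beginning 130 and 129 bases before the start, which overlap each other, and no match to GAAANNGAAA. The response element motif was also found in the Cxcl14 window, and it was present in 3.44% of all 32851 RefSeq promoter windows. GGGNNNNNCC is a permissive pattern that 50.8% of all windows held, 6 of the 7 windows of these chemokines included.

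The decamer GGGAATTTCC was chosen as the NF-kappaB match that the Cxcl1, Cxcl2 and Cxcl3 windows have in common. That these 3 hold it was therefore fixed by the choice. It was held by 29 of the 32851 windows (0.0883%), these 3 included. The following stretches, all on the plus strand, run from 5 bases before this decamer to 16 bases before the transcription start. Capitals mark the decamer and any TATAAA. Other matches to GGGNNNNNCC were left in lower case, such as those beginning 78 bases before the start in Cxcl2 and 50 bases before it in Cxcl3. Cxcl1 and Cxcl3 held further matches ahead of their stretches, beginning 90 and 120 bases before the start. The stretches lie at chr5:90891169-90891229 for Cxcl1, chr5:90903797-90903883 for Cxcl2 and chr5:90786023-90786085 for Cxcl3.
Cxcl1: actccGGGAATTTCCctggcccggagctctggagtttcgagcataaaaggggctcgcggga
Cxcl2: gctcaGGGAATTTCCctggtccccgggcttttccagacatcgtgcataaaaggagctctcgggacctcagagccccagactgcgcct
Cxcl3: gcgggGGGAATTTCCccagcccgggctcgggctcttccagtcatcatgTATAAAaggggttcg

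The decamer began 71, 97 and 73 bases before the start in Cxcl1, Cxcl2 and Cxcl3. TATAAA, held by 13.6% of all windows, was found 30 bases before the start in Cxcl3 and 195 bases before it in Cxcl9. A match gives the letters in the window and does not show that a protein binds there.

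**Figure D1:**
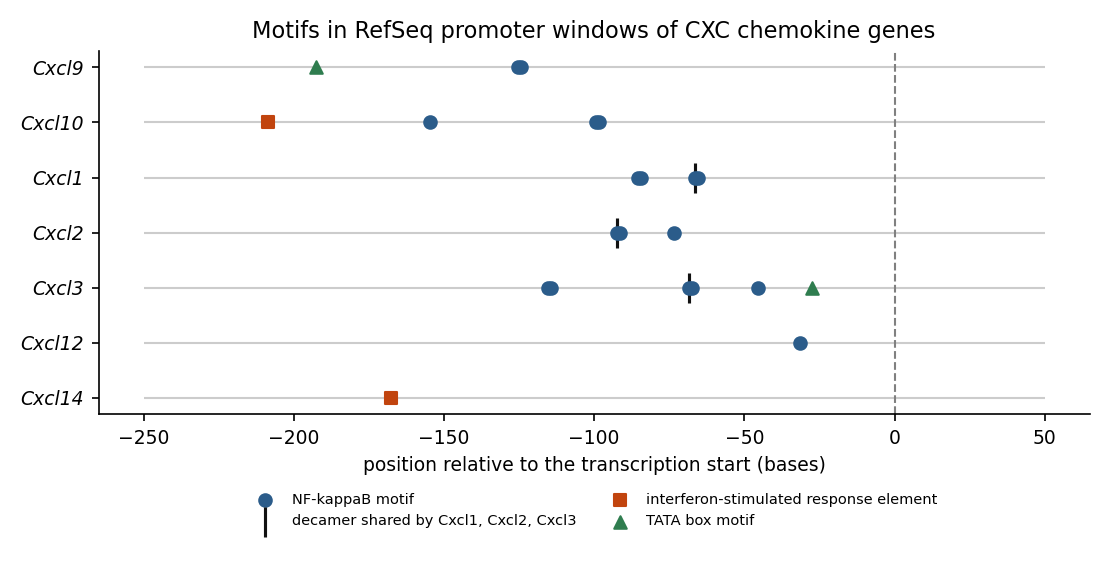
Motif positions in the 7 RefSeq promoter windows of CXC chemokine genes, in bases relative to the transcription start (dashed line). Blue circles are NF-kappaB motifs, black bars the decamer shared by Cxcl1, Cxcl2 and Cxcl3, orange squares interferon-stimulated response element motifs (Cxcl10 and Cxcl14) and green triangles TATA box motifs (Cxcl9 and Cxcl3).

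Signals are log2 values that the authors made with RMA, and each difference is the HuR-deficient array minus the wildtype array. With 1 array for each genotype there is no spread between replicates and no test, so a difference compares these 2 arrays, and genotype and array cannot be told apart. The arrays correlated over 41345 probe sets with a Pearson r of 0.970, and their median signals were 4.10 on the HuR-deficient array and 4.08 on the wildtype array. The targeted gene, Elavl1, had signals of 7.75 and 7.68 on the HuR-deficient and wildtype arrays. It was not lower in the deficient cells, so the array does not check the genotype label, and the position of its probe set relative to the disruption is not known here. Of 10 macrophage marker genes, 9 passed the signal filter defined below. Their median difference was -0.07, with 6 of the 10 below 0. Adgre1, which encodes an adhesion receptor of macrophages, was the marker past 2-fold, with 6.51 on the HuR-deficient array and 4.94 on the wildtype array, 2.96-fold higher. The summed log2 signal of the 10 was 82.5 on the HuR-deficient array and 80.7 on the wildtype array, and Adgre1 and Mertk, which did not pass, added 1.57 and 0.73 to that gap. Of 6 neutrophil markers, 1 passed, namely S100a8, with 4.04 on the HuR-deficient array and 6.31 on the wildtype array. The summed log2 signal of those 6 was 21.1 and 23.8 on the same arrays. S100a8 alone differed by -2.27, and the other 5 did not pass. It was under the filter's floor on the HuR-deficient array and passed through the wildtype array only, so the size of its difference is uncertain. Of the 6, 4 lay below 0 and 2 above. The part of these cell type markers in the results was not tested. In bulk RNA, fewer cells transcribing a gene and less of its RNA in each cell cannot be told apart.

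Among the CXC chemokines, the CXCR3 ligands were higher on the HuR-deficient array than on the wildtype array, the neutrophil-attracting ligands were mixed, and Cxcl16 differed little. The signal filter kept genes with at least 1 value at or above 4.38, the median over all named genes. It kept 11905 genes and 9 of the 10 chemokines. Cxcl5 did not pass. Cxcl1 passed through the wildtype array only, and Cxcl3 through the HuR-deficient array only. At a threshold of 2-fold, a log2 difference of 1, Cxcl9 was higher, against 0.882% of all genes that passed the filter, and no CXC chemokine was lower, against 1.11%. At 1.5-fold, Cxcl9, Cxcl3 and Cxcl11 were higher, against 5.44% of genes, and Cxcl2 was lower, against 5.32%. The chemokines were picked with these differences known, so nothing is read from these shares. Over all 10 chemokines the median difference was 0.40, with 7 above 0 and 3 below, beside a median of 0.00 over the genes that passed, of which 49.3% lay above 0.

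**Figure D2:**
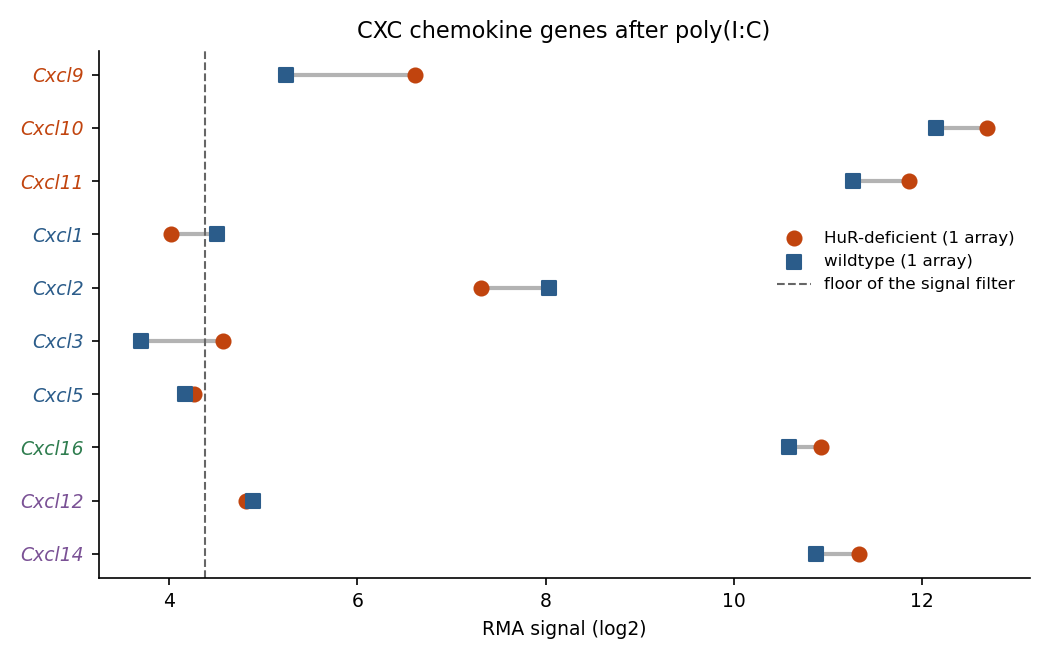
RMA signal (log2) of the 10 CXC chemokine genes, with an orange circle for the HuR-deficient array and a blue square for the wildtype array. Gene names are coloured by class, in the order CXCR3 ligands, neutrophil-attracting ligands, Cxcl16 and homeostatic ligands, and the dashed line is the filter's floor of 4.38, which Cxcl1, Cxcl3 and Cxcl5 lie on or around.

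Cxcl9, a T cell-attracting chemokine whose gene responds most strongly to interferon gamma, had a log2 signal of 6.61 on the HuR-deficient array and 5.24 on the wildtype array. The difference of 1.37 corresponds to a 2.59-fold higher signal, with both arrays above the floor. Of the 500 genes nearest in mean signal, 1% differed by at least as much in either direction, and their robust SD was 0.34. This SD is a spread over genes and is no substitute for replicates.

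Cxcl10, induced by both interferon types and by double-stranded RNA itself, had signals of 12.69 on the HuR-deficient array and 12.15 on the wildtype array. Its difference of 0.55 corresponds to 1.46-fold. Cxcl11 had signals of 11.86 on the HuR-deficient array and 11.27 on the wildtype array, a difference of 0.60 or 1.51-fold. Both lay near the top of the scale, where differences between the arrays were small for most genes. Among the 500 nearest genes the robust SD was 0.17 for Cxcl10 and 0.18 for Cxcl11, and 3.4% and 3% of those genes differed by at least as much. Strong signals can be compressed on arrays, which was not tested here. The RefSeq table of the C57BL/6J strain lists Cxcl11 as a transcribed pseudogene. RAW264.7 cells derive from a BALB/c mouse, so this listing need not hold for them, and the protein was not measured.

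All 3 CXCR3 ligands were thus higher on the HuR-deficient array, with a median difference of 0.60. Over the 2 arrays, the genes closest to Cxcl9 in both signals were Cpq (6.53 on the HuR-deficient array and 5.12 on the wildtype array), Rrad (6.41 and 5.39) and Crabp2 (6.58 and 5.53), at Euclidean distances of 0.14, 0.25 and 0.29 on the log2 scale. Likeness over 2 arrays is a description of a pair of numbers.

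**Figure D3:**
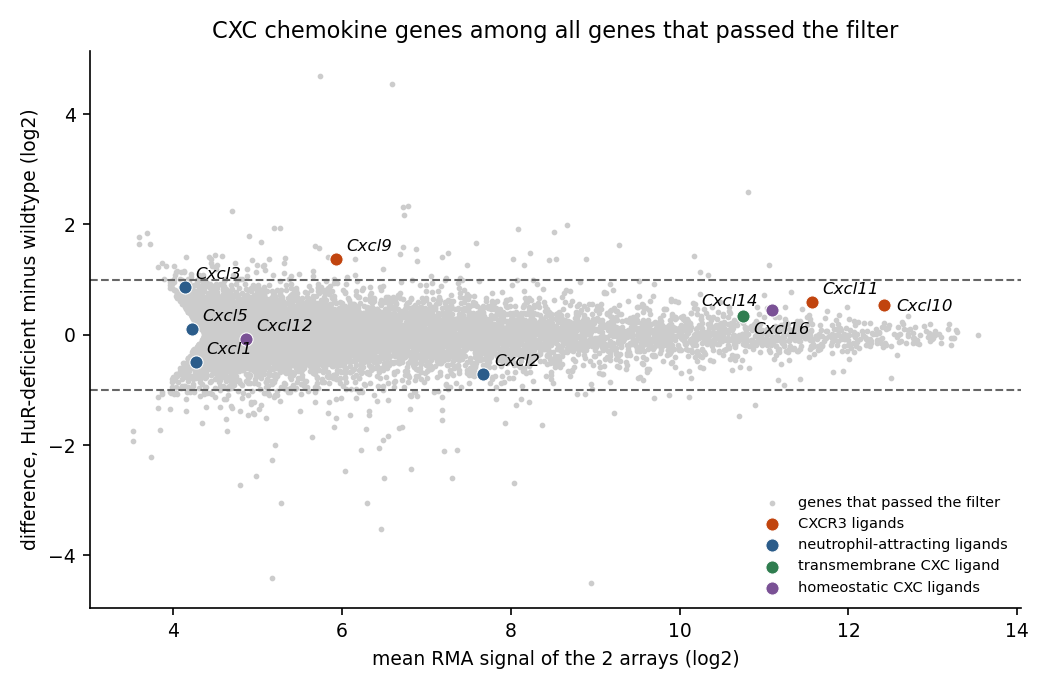
Difference between the arrays (HuR-deficient minus wildtype, log2) against mean signal (log2) for all genes that passed the filter (grey) and the 10 CXC chemokines, coloured by class, with dashed lines at 2-fold. Cxcl9 lies above the upper line, Cxcl10 and Cxcl11 lie at high signal on the upper side, and Cxcl2 lies on the lower side.

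The neutrophil-attracting ligands lay on both sides of 0, but those above it, Cxcl3 and Cxcl5, had wildtype signals under the floor. Cxcl2, also known as MIP-2 and a main neutrophil chemoattractant made by stimulated macrophages, had signals of 7.32 on the HuR-deficient array and 8.03 on the wildtype array. The difference of -0.71 corresponds to a 1.64-fold lower signal, and 4.6% of its 500 nearest genes differed by as much or more. It was the only one of the 4 whose signals on both arrays reached the floor.

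Cxcl1, or KC, whose mRNA is a well-studied target of AU-rich element decay, had signals of 4.02 on the HuR-deficient array and 4.52 on the wildtype array. Its difference was -0.49, and 14% of the nearest genes differed by as much. Cxcl3 had signals of 4.57 on the HuR-deficient array and 3.70 on the wildtype array, a difference of 0.87 or 1.83-fold, and 3.2% of the nearest genes differed by as much. Cxcl1 was under the floor on the HuR-deficient array and Cxcl3 on the wildtype array, so neither weaker signal was shown to lie above background and the sizes are uncertain. Cxcl5, or LIX, had signals of 4.27 and 4.17 on the HuR-deficient and wildtype arrays, both under the floor, with a difference of 0.10.

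The median difference of the 4 neutrophil-attracting genes was -0.20, against 0.60 for the CXCR3 ligands. Cxcl3 at 0.87 lay inside the range of the CXCR3 ligands, 0.55 to 1.37. Its wildtype signal was under the floor, so whether the classes overlap is uncertain. Cxcl1, Cxcl2 and Cxcl3, which share the promoter decamer, differed by -0.49, -0.71 and 0.87. These paralogues are related in sequence, and whether their probe sets read each other's transcripts was not tested.

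Cxcl16 encodes a transmembrane chemokine that binds Cxcr6, also acts as a scavenger receptor for oxidised lipoprotein, and is released from the cell surface by the protease Adam10. Its signal was 10.93 on the HuR-deficient array and 10.58 on the wildtype array. The difference of 0.35, or 1.27-fold, was in the direction of the CXCR3 ligands but smaller than each of theirs, and 15.8% of the nearest genes differed by at least as much. Adam10 had signals of 7.04 and 6.97 on the HuR-deficient and wildtype arrays.

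Cxcl14 and Cxcl12 are made constitutively in many tissues, and Cxcl12 retains blood cell precursors in the bone marrow through Cxcr4. Cxcl14 had signals of 11.33 on the HuR-deficient array and 10.87 on the wildtype array, a difference of 0.46, and 8.2% of the nearest genes differed by as much. Cxcl12 had signals of 4.82 on the HuR-deficient array and 4.89 on the wildtype array, a difference of -0.07. Its signals lay slightly above the floor on both arrays and differed by less than those of 85% of the nearest genes.

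The genes of the CXCR3 ligands and of the neutrophil-attracting ligands form separate clusters on chromosome 5 in the RefSeq table. In the CXCR3 ligand cluster, the ADP-ribosyltransferase gene Art3 lies among the chemokines and differed by 0.70 (5.73 on the HuR-deficient array and 5.03 on the wildtype array). Art3 overlaps Cxcl10 and Cxcl11 in that table, and whether its probe set reads their transcripts was not tested. On the Cxcl9 side the next genes, Sdad1 and Naaa, which encodes an acylethanolamine-degrading lysosomal enzyme, differed by 0.45 and 0.61. On the Cxcl11 side Nup54, a nuclear pore gene, and Scarb2, a lysosomal membrane protein gene, differed by -0.11 and 0.02. The 8 flanking genes measured, of which 6 passed the signal filter, had a median difference of -0.05 and ranged from -0.31 to 0.61. The 4 genes within the cluster had a median of 0.65. Of these, Cxcl9, Cxcl10 and Cxcl11 were selected on their differences, so nothing is read from the gap between the 2 medians. Naaa differed by more than Cxcl10 and Cxcl11. Art3 and the flanking genes were added by position after the chemokine values were known.

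The cluster that runs from Cxcl5 to Cxcl2 showed no common direction, and 4 of its 7 genes passed the signal filter. Its 7 genes ranged from -0.71 for Cxcl2 to 0.87 for Cxcl3, and the platelet chemokine genes Pf4 and Ppbp, which lie between Cxcl5 and Cxcl3, each had the same value on both arrays, 4.65 for Pf4 and 4.01 for Ppbp. Of the 7 flanking genes measured, 1 passed the signal filter, and they ranged from -0.70 to 0.80.

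**Figure D4:**
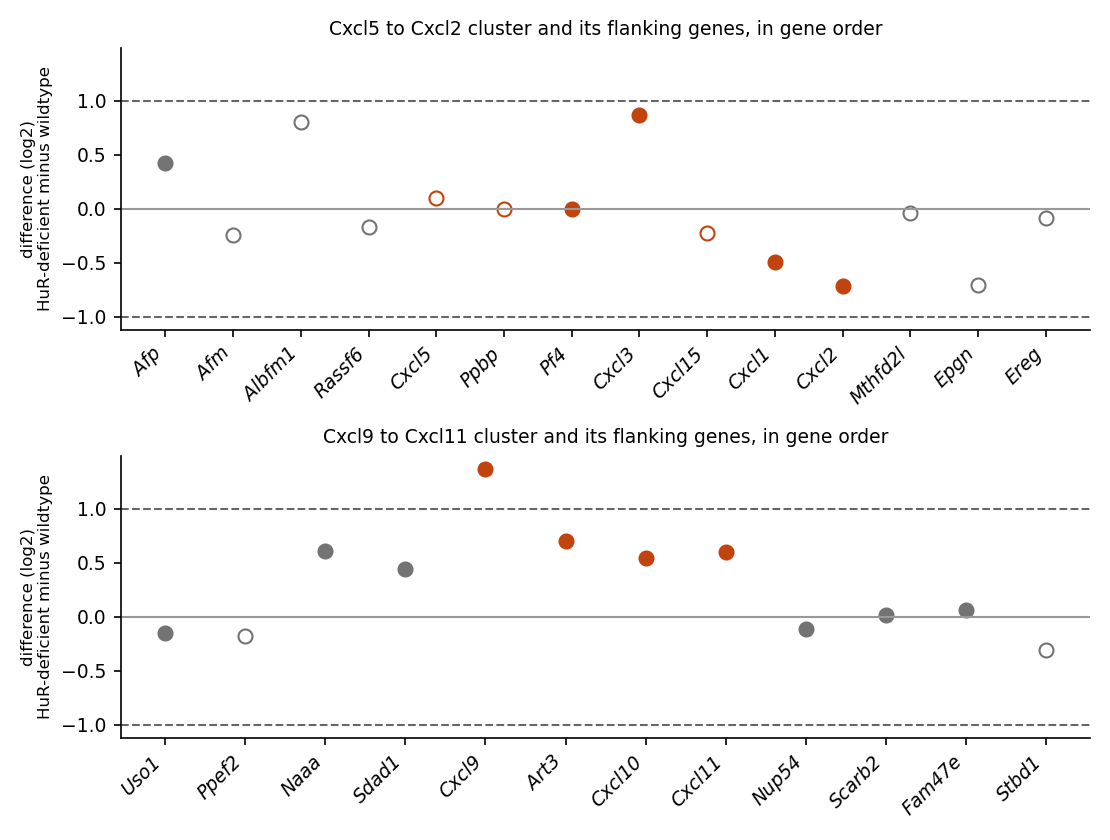
Difference between the arrays (HuR-deficient minus wildtype, log2) for measured genes of both CXC chemokine clusters (orange) and up to 4 flanking genes on each side (grey), in gene order and not to scale. Open circles are genes that did not pass the signal filter, and dashed lines mark 2-fold. The CXCR3 ligand cluster lies above 0 throughout, while the Cxcl5 to Cxcl2 cluster lies on both sides of 0.

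The receptors of these ligands were also measured. Cxcr3 had a signal of 6.33 on the HuR-deficient array and 7.45 on the wildtype array. It was 2.16-fold lower (difference -1.11), the opposite side from its 3 ligands, and 1.6% of the nearest genes differed by as much. Cxcr2, the receptor of the neutrophil-attracting ligands, had 4.86 on the HuR-deficient array and 4.12 on the wildtype array, where it was under the floor. Of 8 CXC receptor genes, 6 passed the filter, 1 was at least 2-fold lower, beside 1.11% of all genes, and none was higher, beside 0.882%. Of the 5 other CXC ligand genes, 3 passed and none reached 2-fold, with Cxcl17, a mucosal chemokine, at 0.39 and the B cell-attracting Cxcl13 at -0.10.

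On the path from double-stranded RNA to the CXCR3 ligands, no measured gene of the sensing and interferon signalling lists reached 2-fold, beside the shares of 0.882% higher and 1.11% lower over all genes. All 11 measured sensing genes passed the filter, with a median difference of 0.13. The adaptor gene Mavs and the kinase gene Ikbke lay farthest from 0, at 0.56 each. Ifnb1, encoding interferon beta, had a signal of 11.80 on each array. The 12 measured interferon signalling genes had a median difference of 0.03. Within them the transcription factor gene Irf8, which cooperates with Irf1 in macrophages, had signals of 10.01 on the HuR-deficient array and 9.03 on the wildtype array (difference 0.98), and the kinase gene Tyk2 differed by 0.66. Of 12 measured genes that interferon induces alongside these chemokines, 11 passed the filter and none reached 2-fold. The 11 all lay above 0, beside 49.3% of all genes that passed the filter, with a median of 0.36. They ranged from 0.03 for Ifit3 to 0.93 for the GTPase gene Iigp1, and Nos2, inducible nitric oxide synthase, differed by 0.69. Ido1, under the floor on both arrays, also lay above 0, and the median of all 12 was 0.29. The pathway lists were chosen with earlier results of these data known, so nothing is read from such shares.

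On the NF-kappaB side, 13 measured pathway genes had a median difference of 0.29, 11 of them above 0, beside 49.3% of all genes, and none at 2-fold. Nfkb2 differed by 0.61 and Tnfaip3, which encodes the inhibitor A20, by -0.61. Of 8 cytokine and mediator genes that NF-kappaB drives, 6 passed the filter. Ptgs2, cyclooxygenase-2, was 2.22-fold higher (6.23 on the HuR-deficient array and 5.08 on the wildtype array), and Il1a differed by -0.57. Il1a was under the floor on the HuR-deficient array and passed through the wildtype array only, so the size of its difference is uncertain. The median was -0.03 over all 8 genes and 0.11 over the 6 that passed, so its sign depended on the filter.

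Regulators of mRNA stability were examined because several CXC chemokine mRNAs are their known targets. Of 17 genes, 15 passed the filter, 1 was at least 2-fold higher, beside 0.882% of all genes, and none was lower, beside 1.11%, with a median difference of 0.17. Arid5a, an RNA-binding protein that protects inflammatory mRNAs from decay, had signals of 4.73 on the HuR-deficient array and 3.69 on the wildtype array, where it was under the floor, a difference of 1.04. Traf3ip2, the adaptor Act1 that stabilises Cxcl1 mRNA downstream of interleukin-17, differed by 0.76. Of 6 proteases that cleave CXC chemokines, 3 passed the filter and none reached 2-fold, with Mmp9 at 0.32 and Adam17 at 0.09.

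**Figure D5:**
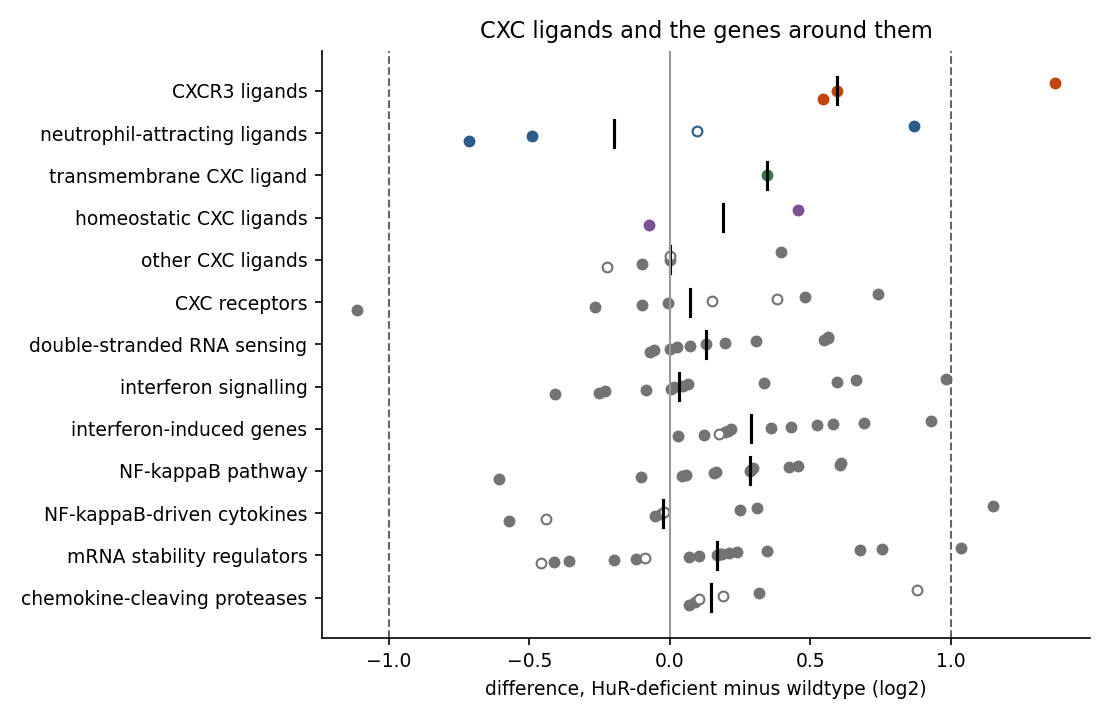
Difference between the arrays (HuR-deficient minus wildtype, log2) for each measured gene of the CXC ligand classes (coloured) and of related gene lists (grey). Open circles did not pass the signal filter, short black lines are list medians and dashed lines mark 2-fold. The CXCR3 ligands and the interferon-induced genes lie above 0 throughout, and Cxcr3 is the receptor below the lower line.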

How the data were processed

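Total RNA was extracted with Trizol and biotin-labelled, per the labels' protocols. The authors used RMA to make the deposited log2 values, 1 column per array, per the submitters' processing notes. That they are log2 was read from their range (0.434 to 13.77), and the RMA version, annotation and build are not stated. RMA quantile-normalises the arrays, so a change in total mRNA is not visible, and it compresses weak signals. Of 41345 probe sets, 23521 had 1 gene symbol, 1814 several and 16010 none. Of the 22180 genes, 1082 had more than 1 probe set and were represented by the probe set of highest mean.

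With 1 array per genotype, no p-value was computed. Nearest genes were the 500 closest in mean signal, with no filter. Named genes were the chemokines, Elavl1, genes of each pathway list (not the cell type markers) past 2-fold or among its 2 largest absolute differences, if they passed the filter, and the 3 genes nearest to Cxcl9; other genes were named after their values were seen. Of 139 listed symbols, 134 had a usable probe set. The chemokines and lists were chosen with earlier results of these data known. The calling step was tested on simulated data, with log2 differences of 2 set in genes well above the floor. Differences as small as those of these chemokines were not set in it. Alternatives were other filters and thresholds, averaged probe sets, centring, a loess trend (span 0.3) subtracted from the differences, and repeated quantile normalisation. Depth has no meaning for arrays, and their number limits the precision. The work used Python 3.11.15 with pandas 2.3.3, numpy 2.4.6, matplotlib 3.10.9 and statsmodels 0.14.6.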

Additional observations from a re-analysis of the deposited data

How the results depend on the processing

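The differences of the 10 single genes moved by at most 0.042 under repeated quantile normalisation and subtraction of the loess trend. Centring and averaged probe sets could not move them, because the median difference was 0 and each had 1 probe set. Calls depended on the threshold. At 1.5-fold, 3 CXC chemokines were higher, beside 5.44% of the genes that passed the filter, and 1 was lower, beside 5.32%. At 3-fold 0 were higher and 0 lower, beside 0.462% of genes past 3-fold in either direction. The median of the neutrophil-attracting genes was -0.71 both when the lower of the 2 values had to reach the floor and with a floor at the 75th percentile (5.61), because Cxcl2 alone was then left. No paired analysis was possible because each genotype had 1 array. Weak signals limit Cxcl1, Cxcl3 and Cxcl5, and detection calls were not used here.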

Other observations

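Genes other than the 10 chemokines that hold the same promoter motifs are given as a description of these 2 arrays. The decamer of Cxcl1, Cxcl2 and Cxcl3 occurred in the windows of 26 such genes, of which 18 were measured and 11 passed the signal filter. None of the 11 reached 2-fold, beside 1.81% of the 9296 genes with any window that passed. Of the 11, 3 lay above 0 (27.3%), beside 49.4%, and their median difference (HuR-deficient minus wildtype, log2) was -0.18, beside 0.00. They included Nfkbia, the NF-kappaB inhibitor gene, at 0.30 (10.11 on the HuR-deficient array and 9.82 on the wildtype array), the interferon-inducible GTPase gene Gbp5 at 0.52, the chemokine receptor gene Ccr3 at -0.72 and the kinase gene Map3k7 at -0.18. Of the genes below 0, Ccr3, Trio, Slc6a13 and Asb8 were under the floor on the HuR-deficient array and passed through the wildtype array only. No gene above 0 was under the floor on either array. The sizes of those differences are uncertain, so nothing is read from the share above 0 or from the median. Nfkbia, Gbp5, Ccr3 and Map3k7 were picked after their values were seen.

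The interferon-stimulated response element motif found in Cxcl10 and Cxcl14 occurred in the windows of 1077 other genes, of which 655 were measured and 354 passed the filter. Of the 354, 13 reached 2-fold, 7 of them higher and 6 lower, which is 3.67%, beside 1.81% of the genes with any window. Their median difference was 0.04, and 53.1% lay above 0, beside 49.4%. A match in a promoter window is not a measured binding site.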
